A study of Mus musculus with 25 samples.

Results

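The genes described here encode voltage-gated calcium channels, voltage-gated sodium channels and HCN channels, as measured in the CA1 region of the hippocampus of handled and non-handled mice. They were taken by name, as the probe sets annotated to 1 gene whose symbol begins with Cacna, Cacnb or Cacng, with Scn, a number and a or b, or with Hcn. That gave 37 of 18193 genes and 87 of 45101 probe sets, with 1 to 5 probe sets per gene. Each gene was represented by its leading probe set, the one with the highest mean log2 signal over the 25 arrays. Pore-forming subunits made up 19 of the genes and auxiliary subunits 18.

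Voltage-gated calcium and sodium channels are built around a large pore-forming subunit that senses membrane voltage. Calcium entering through Cav2 pores triggers transmitter release, Cav1 pores couple activity to gene expression, Cav3 pores open near the resting potential and Nav pores carry the action potential. Auxiliary alpha2delta and Cav beta subunits bring calcium channels to the membrane and tune their gating, and the Nav beta subunits do the same for sodium channels. Several of the Cav gamma proteins act as partners of AMPA-type glutamate receptors rather than of calcium channels. HCN channels open on hyperpolarization and carry a current that sets the resting properties and dendritic integration of CA1 pyramidal neurons.

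All mice were female Balb c/J, an inbred strain. The 11 handled mice were taken from their mothers for 15 min each morning on postnatal days 1 to 14. The 14 non-handled mice were raised under standard conditions. Behavior was tested at 8 weeks of age, the CA1 region was microdissected 2 weeks later, and RNA went through a double round of amplification onto 1 Affymetrix Mouse 430_2.0 array per mouse. RNA came from RNA/DNA columns in 7 handled and 10 non-handled mice and from Trizol in 4 handled and 4 non-handled mice, a separate set of animals, so extraction method and set of animals cannot be told apart. Handling was given by litter and some mice shared a litter, but the litter of each mouse is not given in the sources used here. Every p-value treats mice as independent and may be too small for handling. Because the tissue is bulk CA1, fewer cells of a type and less RNA per cell cannot be told apart.

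Values are log2 of the deposited signal. Mean signal per array ran from 737 to 910, and the median log2 signal of an array ran from 6.32 to 6.58 in handled mice with columns, against 6.57 to 7.08 in non-handled mice with columns. With Trizol it ran from 6.86 to 7.15 in handled mice, against 7.11 to 7.35 in non-handled mice. The array median thus moved with both comparisons, and results that turn with array scaling are given beside the main ones. The deposited table used here has no detection call, so the array median serves as a mark of dim probe sets. The leading probe set lay above the median of its array on all 25 arrays for 21 member genes, 11 pore and 10 auxiliary. The other 16 included Scn9a and Scn10a, sodium channel pores known from sensory neurons, at or below the median on all 25 arrays, and Cacna1s, the calcium channel pore of skeletal muscle, above it on 1 array. All 5 measured CA1 pyramidal neuron markers lay above the array median on every array, as did 1 of 5 dentate granule markers and 3 of 6 CA3 and CA2 markers.

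Between handled and non-handled mice, with extraction method as a term, 8 of 37 channel genes changed, 4 in each direction. Across all genes the limma fit called 14.2%, 4.47% higher and 9.70% lower at a Benjamini-Hochberg adjusted p under 0.05. Without handled mouse H109, 5 channel genes were called. Scn2a, Scn3a, Cacna1b and Cacnb4 rose in handled mice, and Hcn2, Cacna1g, Cacnb1 and Cacng7 fell. The changes of the genes that rose were 0.33 to 0.47 on the log2 scale, and those of the genes that fell were -2.21 to -0.36. Among the 21 genes above the array median on all arrays, 6 were called, 4 higher and 2 lower, against 18.7% of all such genes, 9.06% higher and 9.61% lower. The other 29 channel genes did not pass the test, with changes between -1.19 and 0.32.

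**Figure D1:**
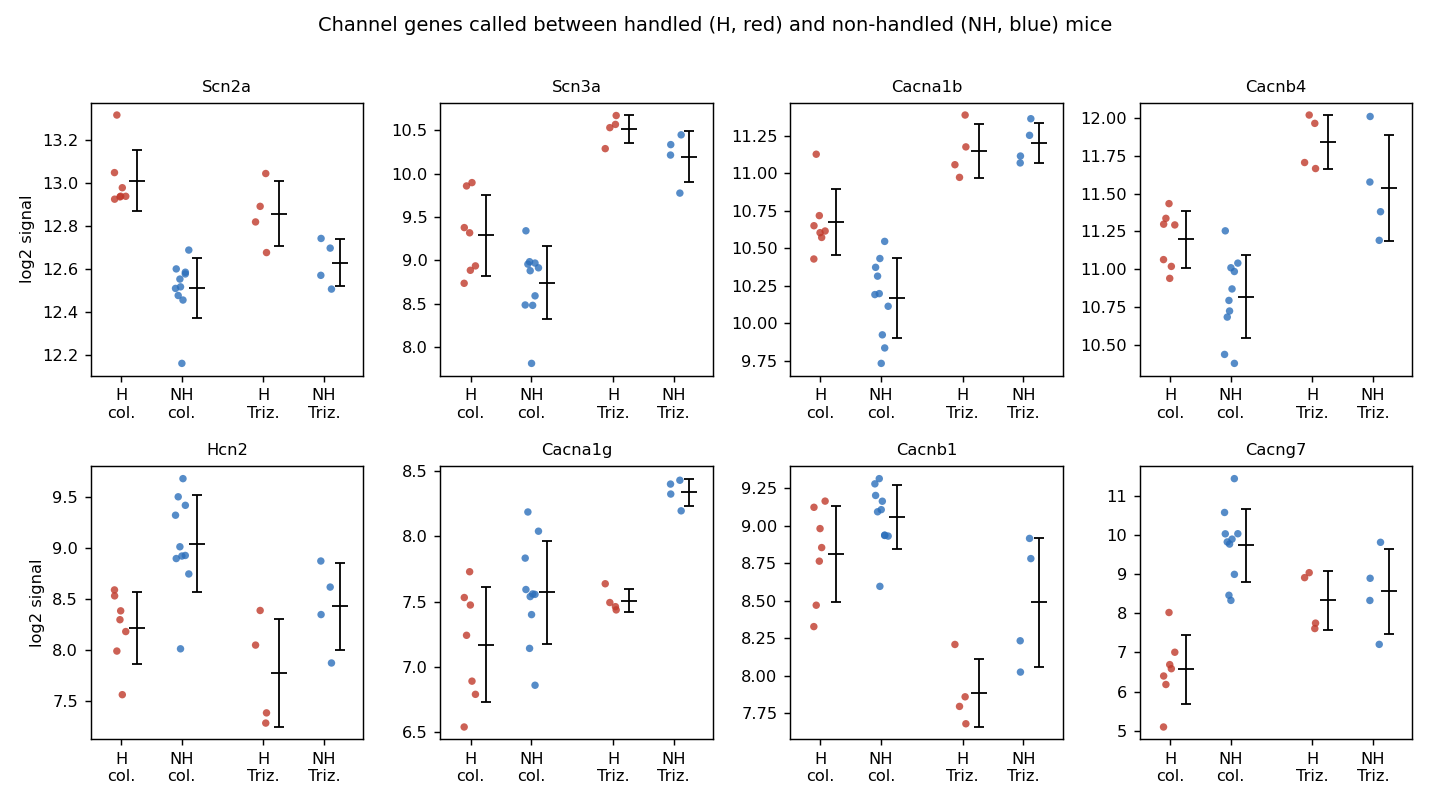
Log2 signal (vertical axis) of the 8 channel genes called between handled (H, red) and non-handled (NH, blue) mice, by RNA extraction with columns or Trizol. Each point is 1 mouse, bars show mean and SD, and panels have their own scale. Handled mice with columns do not overlap non-handled mice with columns for Scn2a and Cacng7.

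Scn2a, a sodium channel pore of excitatory neurons and their axons, had the smallest adjusted p among the rises. Its log2 signal in mice with columns had a lowest, median and highest value of 12.92, 12.94 and 13.32 in the handled group, against 12.16, 12.53 and 12.69 in the non-handled group. With Trizol it was 13.04, 12.68, 12.89 and 12.82 in handled mice, against 12.51, 12.57, 12.74 and 12.70 in non-handled mice. Every handled mouse with columns was above every non-handled mouse with columns, whereas the groups with Trizol overlapped. The share of all genes whose groups do not overlap was not counted. Here and for the genes below, a lack of overlap therefore only describes the values. All 11 handled mice lay above the non-handled median of their own extraction method. The change was 0.41 (standard error 0.07, limma adjusted p = 0.000263), a fold of 1.33, with 0.50 among mice with columns and 0.23 among mice with Trizol. Of the 3 further probe sets of Scn2a, those with changes of 0.25 and 0.60 were also called (limma adjusted p = 0.0295 and 0.00974), and the fourth, which was above the array median on 13 arrays, had a change of 0.10.

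Scn3a, a sodium channel pore that in rodent brain is most abundant before and shortly after birth, neighbours Scn2a on chromosome 2. In mice with columns its lowest, median and highest log2 signal was 8.74, 9.32 and 9.90 in the handled group, against 7.81, 8.90 and 9.34 in the non-handled group. Handled mice with Trizol had 10.57, 10.67, 10.53 and 10.29, against 10.45, 10.21, 10.33 and 9.77 in non-handled mice with Trizol. The groups overlapped under both extraction methods, and 9 handled mice lay above the non-handled median of their method. The change was 0.47 (standard error 0.14, limma adjusted p = 0.0279), with 0.54 under columns and 0.32 under Trizol. This call was lost when handled mouse H109 or H116 was left out, and values over the 25 fits without 1 mouse ran from 0.40 to 0.53. The second probe set of Scn3a, below the array median on all arrays, had a change of -0.46 (limma adjusted p = 0.513).

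Cacna1b encodes the N-type calcium channel pore of presynaptic terminals. Its log2 signal under columns was 10.43, 10.61 and 11.13 (lowest, median, highest) in handled mice, against 9.73, 10.19 and 10.55 in non-handled mice. Under Trizol it was 11.39, 11.18, 10.97 and 11.06 in handled mice, against 11.36, 11.07, 11.12 and 11.25 in non-handled mice. The higher values of handled mice were thus in the column group, and the Trizol groups covered the same range. The change was 0.33 (standard error 0.10, limma adjusted p = 0.0323), with 0.51 under columns and -0.05 under Trizol. The difference between the changes under columns and Trizol, 0.56 (standard error 0.19), did not pass the test (limma adjusted p = 0.514). A second probe set rose by 0.31 (limma adjusted p = 0.0413) and another had -0.02 (limma adjusted p = 0.935), all 3 being above the array median on every array. The leading probe set of Cacna1b belongs to a type whose probes can match other sequences. Its call was lost when any of 6 mice was left out (H109, H110, H117, H118, NH165 or NH166), with values of 0.26 to 0.36 over all 25 such fits.

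Cacnb4, a calcium channel beta subunit, was the auxiliary gene that rose. Handled mice with columns had a lowest, median and highest log2 signal of 10.94, 11.29 and 11.43, against 10.38, 10.83 and 11.25 in non-handled mice with columns. With Trizol the values were 11.96, 11.66, 12.02 and 11.70 in handled mice, against 11.38, 11.58, 12.01 and 11.19 in non-handled mice. Although the groups overlapped, all 11 handled mice were above the non-handled median of their extraction method. The change was 0.35 (standard error 0.10, limma adjusted p = 0.0157), with 0.38 under columns and 0.30 under Trizol. A second Cacnb4 probe set rose by 0.38 (limma adjusted p = 0.00704) and another had 0.07 (limma adjusted p = 0.652).

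Hcn2, 1 of the 2 HCN genes measured, fell in handled mice. Its lowest, median and highest log2 signal was 7.56, 8.30 and 8.59 in handled mice with columns, against 8.01, 8.97 and 9.68 in non-handled mice with columns. With Trizol it was 7.29, 7.39, 8.39 and 8.05 in handled mice, against 7.87, 8.87, 8.35 and 8.62 in non-handled mice. The ranges overlapped, but each of the 11 handled mice lay below the non-handled median of its extraction method. The change was -0.77 (standard error 0.16, limma adjusted p = 0.00284), a fold of 0.587, with -0.82 under columns and -0.65 under Trizol. Hcn3, the other HCN gene, had a change of -0.46 that did not pass the test (standard error 0.21, limma adjusted p = 0.134), with -0.71 under columns and 0.04 under Trizol. Each HCN gene has 1 probe set.

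Cacna1g, a T-type calcium channel pore, fell by 0.54 in handled mice (standard error 0.16, limma adjusted p = 0.0260). Under columns its log2 signal was 6.54, 7.24 and 7.73 (lowest, median, highest) in handled mice, against 6.86, 7.56 and 8.18 in non-handled mice. Under Trizol it was 7.46, 7.44, 7.49 and 7.64 in handled mice, against 8.19, 8.40, 8.32 and 8.43 in non-handled mice. Here the 4 Trizol mice of each group did not overlap and the column groups did, with changes of -0.83 under Trizol and -0.40 under columns. Neither change passed the test within its method (limma adjusted p = 0.722 under Trizol and 0.222 under columns). The call was lost without handled mouse H108 or H110, and values over the 25 fits without 1 mouse ran from -0.61 to -0.48. Cacna1h, the other T-type gene, had a change of -0.07 (limma adjusted p = 0.730).

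Cacnb1, a calcium channel beta subunit also used in skeletal muscle, had a change of -0.36 that lay at the edge of the test (standard error 0.12, limma adjusted p = 0.0476). Its log2 signal was 8.33, 8.85 and 9.16 (lowest, median, highest) in handled mice with columns, against 8.60, 9.10 and 9.31 in non-handled mice with columns. With Trizol it was 7.86, 7.68, 7.80 and 8.21 in handled mice, against 8.78, 8.23, 8.02 and 8.91 in non-handled mice. The groups overlapped under both methods, and the call held in 9 of the 25 fits that left out 1 mouse, whose values ran from -0.41 to -0.31. It was lost without H108, H109, H113, H116, H118, H126, H130, NH138, NH142, NH147, NH156, NH157, NH162, NH165, NH166 or NH170. Its 3 further probe sets had changes between -0.49 and -0.31, none of them called.

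Cacng7, a gamma subunit that associates with AMPA receptors, had the largest change of the 37 genes, and it lay in the mice with columns. There its lowest, median and highest log2 signal was 5.09, 6.58 and 8.02 in handled mice, against 8.33, 9.86 and 11.45 in non-handled mice, with no overlap. Under Trizol it was 7.61, 7.75, 9.04 and 8.91 in handled mice, against 9.82, 8.33, 8.90 and 7.21 in non-handled mice, which overlapped. The change over all mice was -2.21 (standard error 0.39, limma adjusted p = 0.000388), a fold of 0.216. It was -3.17 under columns and -0.23 under Trizol, and the difference between these, -2.94 (standard error 0.67), did not pass the test (limma adjusted p = 0.107). That difference was called when non-handled mouse NH138 or NH162 was left out (limma adjusted p = 0.0401 and 0.0476). The second Cacng7 probe set, above the array median on 4 arrays, had a change of 0.08 (limma adjusted p = 0.921).

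Promoter sequences are shown for called genes that had a window in RefSeq's GRCm38.p6 annotation, to set genes that rose beside genes that fell. Scn3a and Cacna1g had no window in the table used here. Each line is the 150 bases before an annotated start, read 5′ to 3′ on the gene's strand, with GC boxes (GGGCGG, or CCGCCC for the other strand) in capitals.
Scn2a, first start (chr2:65620619-65620768, plus strand): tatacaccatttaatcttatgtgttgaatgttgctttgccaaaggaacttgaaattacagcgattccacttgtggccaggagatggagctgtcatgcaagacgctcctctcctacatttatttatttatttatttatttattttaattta
Scn2a, second start (chr2:65668536-65668685, plus strand): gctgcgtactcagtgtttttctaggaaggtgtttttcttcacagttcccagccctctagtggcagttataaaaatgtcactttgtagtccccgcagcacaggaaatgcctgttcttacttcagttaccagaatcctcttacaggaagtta
Cacna1b (chr2:24763153-24763302, minus strand): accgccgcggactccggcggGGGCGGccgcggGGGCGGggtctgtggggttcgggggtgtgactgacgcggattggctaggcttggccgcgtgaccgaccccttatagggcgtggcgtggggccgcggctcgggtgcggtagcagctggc
Cacnb4 (chr2:52676144-52676293, minus strand): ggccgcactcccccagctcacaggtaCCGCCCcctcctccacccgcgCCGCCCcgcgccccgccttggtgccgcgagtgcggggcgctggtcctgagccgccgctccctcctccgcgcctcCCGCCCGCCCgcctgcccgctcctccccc
Hcn2 (chr10:79716484-79716633, plus strand): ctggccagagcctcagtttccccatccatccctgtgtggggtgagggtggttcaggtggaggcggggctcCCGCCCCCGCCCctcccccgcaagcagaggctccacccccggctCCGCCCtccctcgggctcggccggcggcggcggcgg
Cacnb1 (chr11:98022628-98022777, minus strand): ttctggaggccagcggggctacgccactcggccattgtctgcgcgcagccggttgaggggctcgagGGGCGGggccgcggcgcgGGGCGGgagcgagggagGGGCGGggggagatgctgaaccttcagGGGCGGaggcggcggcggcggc
Cacng7 (chr7:3332675-3332824, plus strand): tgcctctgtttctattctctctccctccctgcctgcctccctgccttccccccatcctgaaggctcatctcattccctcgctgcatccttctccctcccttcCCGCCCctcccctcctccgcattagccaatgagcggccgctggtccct
The 2 Scn2a windows held no GC box and 2 CG pairs each. Cacna1b held 2 GC boxes and 21 CG pairs, and Cacnb4 held 4 and 20, counting boxes that share bases as separate. Among genes that fell, Hcn2 held 3 GC boxes and 13 CG pairs, Cacnb1 held 4 and 20, and Cacng7 held 1 and 5. Windows with many and with few CG pairs were thus found among the genes that rose and among those that fell. A GC box was present in 36.8% of the 38 windows of 28 channel genes and in 28.6% of 32851 windows of all genes, whose median was 4 CG pairs. Cacnb4 and Cacnb1 each have further annotated starts whose windows hold no GC box.

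By position, all 4 genes that rose lie on chromosome 2, which carries 8 of the channel genes. Of all 1399 genes on that chromosome, 5.29% were called higher and 9.51% lower. Scn1a, Scn2a, Scn3a, Scn7a and Scn9a are related genes in 1 cluster there, while Cacna1b, Cacnb2 and Cacnb4 lie elsewhere on it. This pattern of position was noticed after the changes were seen.

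The channel genes with the largest negative changes after Cacng7 were not called. Scn9a had a lowest, median and highest log2 signal of 1.27, 4.69 and 5.78 in handled mice with columns, against 2.41, 5.68 and 6.46 in non-handled mice with columns. Its change was -1.19 with a standard error of 0.57 (limma adjusted p = 0.170). Cacna2d4, an alpha2delta subunit known from the retina, had a change of -0.90 with a standard error of 0.42 (limma adjusted p = 0.159), and without handled mouse H130, which lay at 1.90, the change was -0.55. Both probe sets were dim, above the array median on 0 and 8 arrays, and their standard errors compare with 0.07 for Scn2a.

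**Figure D2:**
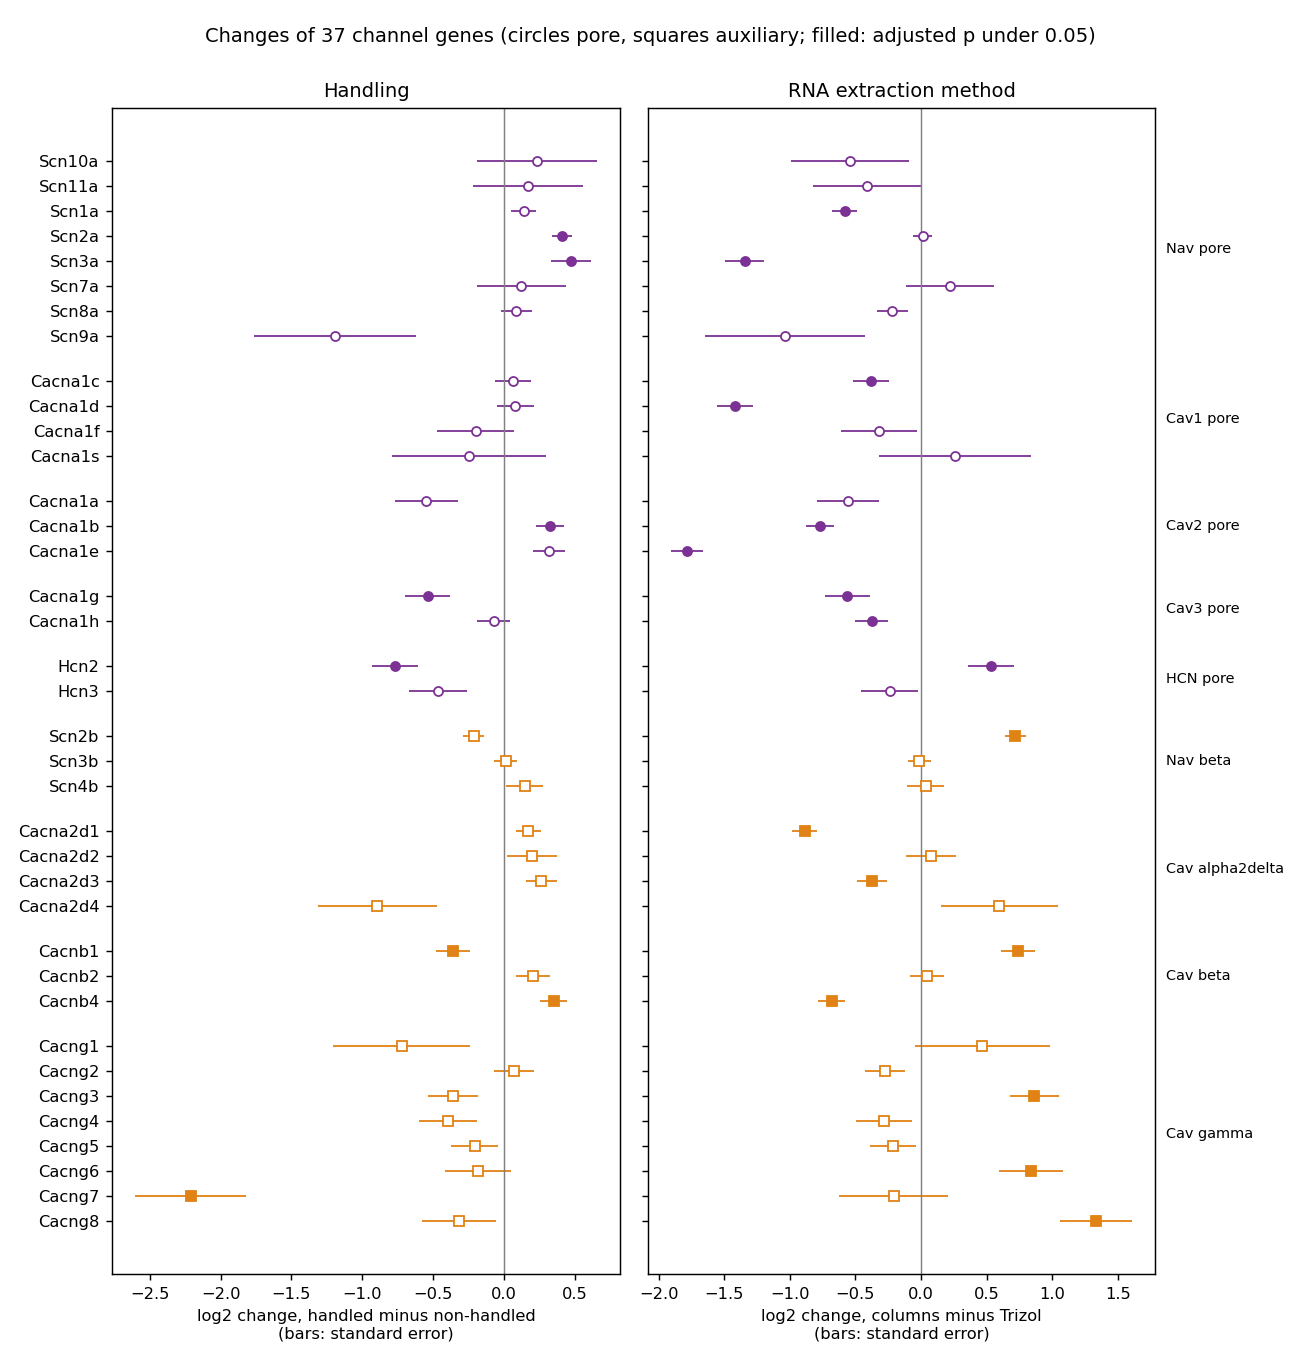
Log2 change of the leading probe set of each of the 37 channel genes between handled and non-handled mice (left) and between columns and Trizol (right), with standard errors as bars. Circles are pore and squares auxiliary subunits, and filled symbols passed an adjusted p of 0.05. The dim genes have the widest bars, and filled pore symbols in the right panel lie below 0 apart from Hcn2.

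By class, 2 of 8 Nav pore genes were called higher and none lower, against 4.47% and 9.70% of all genes. A positive change was found in 7 of the 8, among them all 4 above the array median on all arrays, and the others were dim. Scn1a and Scn8a, which with Scn2a and Scn3a made up these 4, had changes of 0.14 and 0.09 (limma adjusted p = 0.298 and 0.648). The next 2 probe sets of Scn8a, also above the array median on all arrays, had -0.21 and -0.22. Another Scn8a probe set, above it on 21 arrays, had 0.54 (limma adjusted p = 0.109). No Cav1 gene was called, and the L-type genes Cacna1c and Cacna1d had 0.06 and 0.08 by their leading probe sets. The second Cacna1d probe set, above the array median on 17 arrays, had -0.68 (limma adjusted p = 0.0681). Of the Cav2 genes, the R-type pore gene Cacna1e had a change close to that of Cacna1b, 0.32 (standard error 0.11, limma adjusted p = 0.0664), with 0.48 under columns and -0.01 under Trizol. The P/Q-type gene Cacna1a had -0.55 (limma adjusted p = 0.0995).

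Of the auxiliary genes 3 of 18 were called, and of the pore genes 5 of 19, against 14.2% of all genes. The difference between pore and auxiliary genes was not tested. None of the 4 alpha2delta genes was called by its leading probe set. Cacna2d1 and Cacna2d3, the alpha2delta genes above the array median on all arrays, had changes of 0.17 and 0.26 (limma adjusted p = 0.203 and 0.100). A second Cacna2d1 probe set was called, at 0.34 (limma adjusted p = 0.0311). Among the Nav beta genes, Scn2b had -0.21 (standard error 0.08, limma adjusted p = 0.0590), Scn3b 0.01 and Scn4b 0.15. The second Scn3b probe set, above the array median on 23 arrays, had 0.73 (limma adjusted p = 0.0833). Cacnb2 had 0.21 (limma adjusted p = 0.260). Of the 8 gamma genes 7 had a negative change and 1, Cacng7, was called. Only 2 of the 8 were above the array median on all arrays. The median change over all genes was -0.12. For counts of signs by class, the share of all genes with each sign was not counted.

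Cacng2, which encodes stargazin, an AMPA receptor partner, differed between its probe sets. The leading one had 0.07 (limma adjusted p = 0.791). The second had 6.60, 7.61 and 8.49 as lowest, median and highest log2 signal in handled mice with columns, against 4.97, 5.91 and 7.50 in non-handled mice with columns, and was called at 1.33 (standard error 0.29, limma adjusted p = 0.00333). It was above the array median on 8 of the 25 arrays, whereas the leading one was so on all 25. Over all 87 probe sets of the channel genes, 14 were called, 10 higher and 4 lower in handled mice, against 11.5% of all probe sets, 3.58% higher and 7.93% lower.

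**Figure D3:**
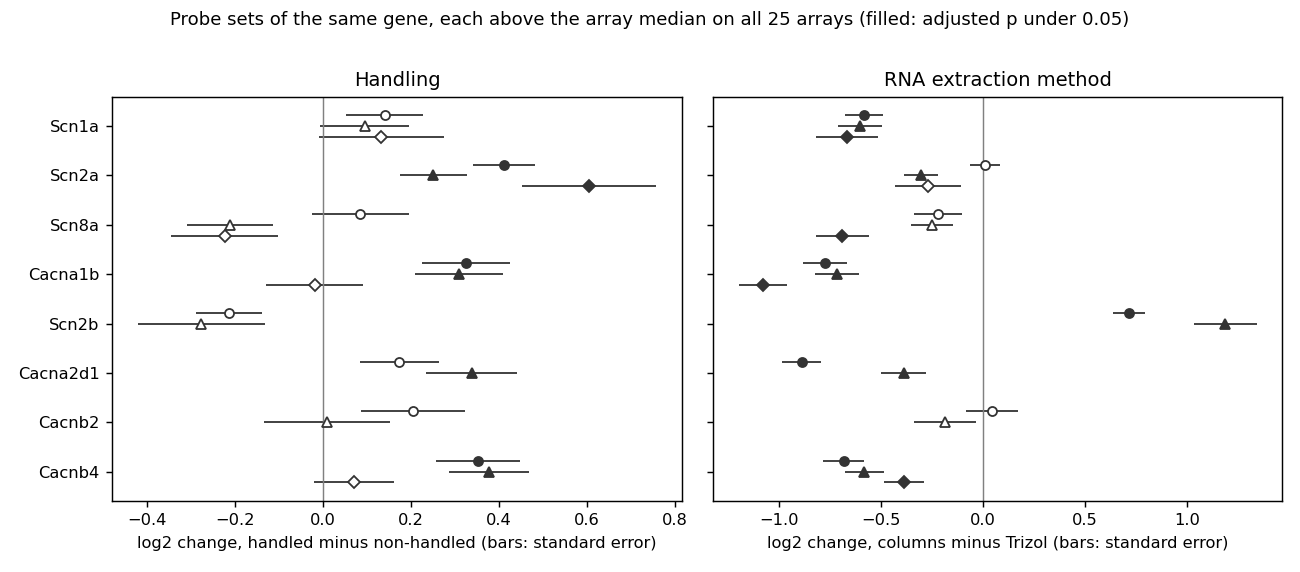
Log2 change of every probe set of the 8 channel genes with at least 2 probe sets above the array median on all 25 arrays, with standard errors as bars. Circle, triangle and diamond are the probe sets of a gene by falling mean signal, and filled symbols passed an adjusted p of 0.05. Probe sets of 1 gene share the sign of the change in 6 genes for handling and in 6 for extraction.

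For the 8 genes with at least 2 probe sets above the array median on every array, 21 probe sets in all, the sign of the handling change was shared within 6 genes. The exceptions were Cacna1b and Scn8a, whose probe sets ran from -0.02 to 0.33 and from -0.22 to 0.09. For extraction it was also shared within 6 genes, the exceptions being Cacnb2 and Scn2a. The 3 probe sets of Scn1a lay between 0.10 and 0.14 for handling and between -0.67 and -0.58 for extraction.

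The median handling change was 0.08 over pore genes and -0.19 over auxiliary genes, against -0.15 over all probe sets tested. The auxiliary classes differed, with -0.34 over the 8 Cav gamma genes, of which 2 were above the array median on all arrays. It was 0.19 over the 4 alpha2delta genes, 0.21 over the 3 Cav beta genes and 0.01 over the 3 Nav beta genes. Over genes above the array median on all arrays the medians were 0.09 for 11 pore genes, 0.11 for 10 auxiliary genes and 0.01 for all 8564 such genes. Centring each array on its median moved the median of all probe sets to 0.13, the pore median to 0.36 and the auxiliary median to 0.08. Relative to all probe sets the pore median was 0.23, between 0.09 and 0.24 over 10 settings that used mice of both extraction methods, 0.27 within columns and 0.06 within Trizol. The auxiliary median relative to all probe sets was -0.05, between -0.08 and 0.03 over those settings, -0.02 within columns and -0.13 within Trizol. The 10 settings include the main fit, and also median centring and a prior without trend, which cannot move these relative medians. The median over the leading probe sets of all 18193 genes was -0.12, also between the pore and the auxiliary median.

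**Figure D4:**
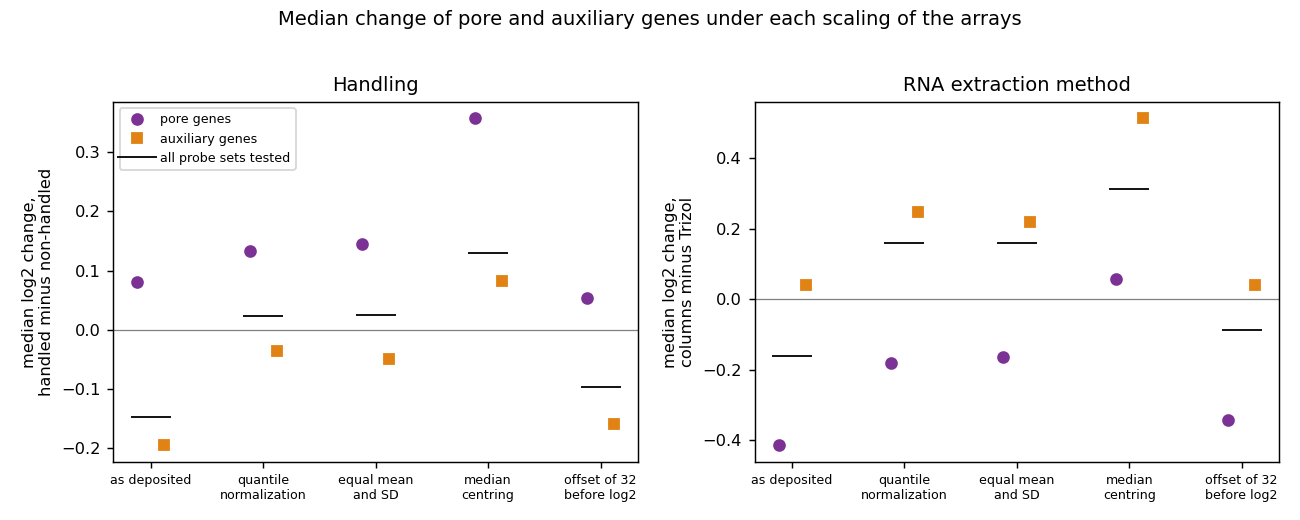
Median log2 change of pore genes (circles), auxiliary genes (squares) and all probe sets tested (lines) under 5 scalings of the arrays, for handling (left) and extraction (right). The pore median stays above that of all probe sets for handling and below it for extraction, while the auxiliary median for handling and the pore median for extraction turn positive under median centring.

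The scaling of the arrays also moved the split of calls. As deposited, 1614 probe sets were called higher and 3571 lower in handled mice. Quantile normalization gave 1319 and 1595, scaling to equal mean and SD 1726 and 1850, and median centring 7273 and 1514. The channel genes called were 2 higher and 3 lower under quantile normalization, 2 and 3 under equal mean and SD, and 10 and 2 under median centring. No called channel gene turned its direction under any of these scalings. Scn2a, Hcn2 and Cacng7 were called in 10 of 11 alternatives, and in all 25 fits that left out 1 mouse. The exception was the fit within mice with Trizol, where limma called 0 of 45037 probe sets and 2870 had an unadjusted p under 0.05. Cacnb4 was called in 7, Scn3a in 6, Cacna1b and Cacna1g in 5 each and Cacnb1 in 2 of the 11.

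No channel gene was called for a difference of the handling change between the extraction methods (0 of 37, against 0.0770% of all genes, limma). An unadjusted limma p under 0.05 was found for 6 of the 37, against 3365 of all 45037 probe sets. Cacna2d2, an alpha2delta subunit singled out after its values were seen, did not overlap between groups under columns, at 8.28 to 8.80 in handled mice against 7.39 to 8.27 in non-handled mice. Under Trizol it was 8.13, 6.85, 8.34 and 7.99 in handled mice, against 8.79, 8.69, 8.23 and 8.10 in non-handled mice. The changes were 0.60 under columns and -0.63 under Trizol, and their difference of 1.23 had a limma adjusted p of 0.221.

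The extraction comparison set 17 mice with columns against 8 with Trizol, handling being a term. Of the 37 channel genes, 17 changed, 6 higher and 11 lower with columns, against 41.2% of all genes, 23.7% higher and 17.5% lower. Pore genes were called lower in 8 of 19 cases and higher in 1, Hcn2. Auxiliary genes were called higher in 5 of 18 cases and lower in 3. Among genes above the array median on all arrays, 13 of 21 channel genes were called, against 65.4% of all such genes. There, 7 of 11 pore genes were lower and 1 higher, and 3 of 10 auxiliary genes lower and 2 higher, against 24.2% lower and 41.2% higher for all such genes. Over all 87 probe sets of the channel genes, 38 were called, 12 higher and 26 lower, against 39.8% of all probe sets, 16.5% higher and 23.3% lower.

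Cacna1e, the R-type pore gene, fell most with columns. Its lowest, median and highest log2 signal was 9.53, 10.75 and 11.31 with columns, against 12.39, 12.52 and 12.86 with Trizol, with no overlap. The change was -1.79 (standard error 0.12, limma adjusted p = 5.57e-14), a fold of 0.290, with -1.53 among handled and -2.01 among non-handled mice. Cacna1d, an L-type pore gene, was at 7.39, 8.16 and 8.71 with columns, against 8.96, 9.63 and 9.79 with Trizol, again without overlap. It fell by 1.42 (standard error 0.14, limma adjusted p = 2.20e-10), and Cacna1c, the other L-type gene above the array median on all arrays, fell by 0.38 (standard error 0.14, limma adjusted p = 0.0260).

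Scn3a had 7.81, 8.94 and 9.90 with columns, against 9.77, 10.39 and 10.67 with Trizol, and fell by 1.34 (standard error 0.15, limma adjusted p = 4.43e-09). The ranges overlapped only at their edges. Cacna2d1, the alpha2delta subunit bound by gabapentin, was at 11.03, 11.89 and 12.29 with columns, against 12.66, 12.79 and 12.90 with Trizol. It fell by 0.89 (standard error 0.10, limma adjusted p = 1.85e-09), without overlap. Its 4 further probe sets differed in direction: 2 were called lower, at -0.39 and -2.35, and 1, above the array median on 22 arrays, was called higher at 0.62 (limma adjusted p = 0.000267). Cacna1b fell by 0.77 (standard error 0.11, limma adjusted p = 2.82e-07), and its 3 probe sets above the array median on all arrays ran from -1.08 to -0.71.

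Further pore genes called lower with columns were Scn1a at -0.58, Cacna1g at -0.56 and Cacna1h at -0.38, and further auxiliary genes were Cacnb4 at -0.68 and Cacna2d3 at -0.37. Scn2a had an extraction change of 0.01 (limma adjusted p = 0.932) by its leading probe set and -0.30 (limma adjusted p = 0.00273) by its second. Scn8a, the main sodium channel pore of nodes of Ranvier, had -0.22 (limma adjusted p = 0.142).

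The rises with columns were in auxiliary genes and Hcn2. Scn2b, a Nav beta subunit, was at 12.14, 12.28 and 12.90 with columns, against 11.35, 11.54 and 12.01 with Trizol, without overlap. It rose by 0.72 (standard error 0.08, limma adjusted p = 3.69e-09), by the same amount among handled and non-handled mice (both 0.72), and its second probe set rose by 1.19. Scn3b, another Nav beta subunit, had a change of -0.01 (standard error 0.08, limma adjusted p = 0.924).

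Cacnb1 rose by 0.74 (standard error 0.13, limma adjusted p = 1.39e-05), the opposite direction to Cacnb4, while Cacnb2 had 0.05 (limma adjusted p = 0.822). Of the gamma genes, Cacng8, an AMPA receptor partner abundant in hippocampus, rose by 1.33 (standard error 0.28, limma adjusted p = 0.000164), with 6.42, 7.14 and 7.85 under columns, against 4.61, 5.58 and 7.26 under Trizol. Cacng3, another AMPA receptor partner, rose by 0.86 (standard error 0.19, limma adjusted p = 0.000241), and Cacng6, known from muscle, by 0.84 (standard error 0.25, limma adjusted p = 0.00594). Their ranges overlapped between the extraction methods. The leading probe set was above the array median on 16 arrays for Cacng8, 19 for Cacng3 and 2 for Cacng6. The second probe sets, above it on 1 array for Cacng8 and 2 for Cacng6, were not called. They had changes of -0.47 for Cacng8 (limma adjusted p = 0.565) and 0.72 for Cacng6 (limma adjusted p = 0.224). Hcn2 rose by 0.53 (standard error 0.17, limma adjusted p = 0.0130).

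The median extraction change was -0.42 over pore genes and 0.04 over auxiliary genes, against -0.16 over all probe sets and -0.02 over the leading probe sets of all 18193 genes. Over genes above the array median on all arrays it was -0.38 for pore and -0.11 for auxiliary genes, against 0.14 for all such genes. Relative to all probe sets the pore median was -0.25, between -0.49 and -0.18 over 10 settings that used both handling groups, -0.32 among handled and -0.44 among non-handled mice. The auxiliary median relative to all probe sets was 0.20, between -0.04 and 0.23 over those settings, 0.33 among handled and 0.07 among non-handled mice. As for handling, median centring and a prior without trend cannot move these relative medians. Called directions depended on scaling here too. As deposited, 7430 probe sets were higher and 10500 lower with columns, against 10756 and 8091 under quantile normalization, 10758 and 7879 under equal mean and SD, and 14296 and 5891 under median centring. The channel genes were 6 higher and 11 lower as deposited and under quantile normalization, 6 and 8 under equal mean and SD, and 12 and 4 under median centring, where the pore median was 0.06 and that of all probe sets 0.31.

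The channel genes differ widely in genomic length, from the 817.8 kb of Cacna2d3 to the 12.1 kb of Cacng6 on GRCm38.p6, with medians of 111 kb for pore and 51.4 kb for auxiliary genes. Across the 37 genes, Spearman's rho of length with the change was 0.51 for handling and -0.61 for extraction, and across the 21 genes above the array median on all arrays 0.57 and -0.63. The same rho was 0.26 and -0.15 over 18032 genes and 0.27 and -0.38 over 8544 genes above the array median on all arrays. These are descriptions across genes, which share the same arrays and are not independent replicates. Long genes such as Cacna1e, Cacna1d and Cacna2d1 were among the falls with columns, and short ones such as Scn2b, Cacnb1 and Cacng8 among the rises.

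Partners of the channels were set beside them, 43 of 50 listed genes being measured. With handling, 2 rose and 5 fell, against 4.47% and 9.70% of all genes. Fgf12, an intracellular modulator of sodium channels, rose by 0.28 (limma adjusted p = 0.0156), and Nedd4, a ubiquitin ligase of membrane proteins, rose by 0.26 (limma adjusted p = 0.0361). Sptbn4, the spectrin that anchors sodium channels at the axon initial segment, fell by 0.93 (limma adjusted p = 6.54e-06), and Stac2, a binding partner of L-type channels, fell by 0.72 (limma adjusted p = 0.000610). With columns, 7 partners rose and 14 fell, against 23.7% and 17.5% of all genes. Fgf13, a relative of Fgf12, rose by 0.74 and Orai3, a store-operated calcium channel, by 1.06. Ryr3, an intracellular calcium release channel, fell by 2.99, and Pex5l, an HCN trafficking partner, fell by 3.27.

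Some markers of other cells were called in each comparison, where handling called 14.2% of all genes. Of 7 interneuron markers, Gad1 and Gad2, the enzymes that make GABA, rose in handled mice by 0.30 and 0.86, and Pvalb fell by 0.32. Slc32a1, Sst, Vip and Npy had changes of 0.11, -0.11, -0.04 and -0.10 and were not called, and the median over the 7 was -0.04. The linear signal summed over all 7 markers, to which bright probe sets add most, ran with columns from 16864 to 21026 in handled mice. In non-handled mice with columns it ran from 12334 to 17773. With Trizol it ran from 13905 to 20405 in handled mice, against 12703 to 15556 in non-handled mice. Of the other lists, handling called 1 of 2 oligodendrocyte precursor markers (Pdgfra, 0.30), 1 of 5 astrocyte markers (Aqp4, 0.32), 1 of 5 microglia markers (P2ry12, 0.24), 1 of 4 endothelial markers (Cldn5, -0.49) and 1 of 3 choroid plexus markers (Folr1, -0.86), against 14.2% of all genes, and the remaining members of these lists were not called. Handling called none of the 5 measured CA1 pyramidal neuron, 5 oligodendrocyte, 5 dentate granule and 6 CA3 and CA2 markers. With columns, 5 of 5 oligodendrocyte, 5 of 5 astrocyte, 3 of 5 microglia, 4 of 7 interneuron and 4 of 5 CA1 pyramidal neuron markers rose, against 23.7% of all genes. So did 3 of 6 CA3 and CA2, 1 of 4 endothelial and 1 of 2 oligodendrocyte precursor markers, while 1 CA1 marker (Man1a, -0.30) and 1 of 5 dentate granule markers (Prox1, -0.66) fell and 0 of 3 choroid plexus markers were called. Many markers were bright: 4 oligodendrocyte, 5 astrocyte, 3 microglia, 7 interneuron and 5 CA1 markers lay above the array median on all arrays. Of all genes that did so, 41.2% were called higher with columns. The log2 ratio of 3′ to 5′ Gapdh probe sets, a measure of RNA integrity and amplification, ran from 1.04 to 1.71 with columns, against 1.49 to 1.95 with Trizol. The same ratio of Actb ran from 1.54 to 3.24 with columns, against 1.62 to 2.12 with Trizol, which overlapped. With these ratios as covariates 5 channel genes were called for handling. The part of cell composition in the changes of the channel genes was not tested.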

How the data were processed

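Signal was measured in CA1 tissue of 25 mice, 1 array per mouse. The authors deposited MAS 5.0 signal intensity, made with Affymetrix Expression Console 1.1, on a linear scale with 1 scaling factor per array and no further normalization. Extraction method was read from the labels' text, which gives it by position in the list of samples. Of 45101 probe sets, 64 controls were left out, which leaves 45037. The platform annotation names 1 gene for 34958 probe sets, several for 932 and none for 9211, and 34754 symbols were updated through gene identifiers. Promoter windows came from RefSeq.

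Linear models of log2 signal on handling and extraction method were fitted with limma 3.58.1 (R 4.3.3), the prior variance following mean signal. A further fit held their interaction, and others were made within each extraction method. Calls used a Benjamini-Hochberg adjusted p under 0.05 over all probe sets tested. The procedure was tested on simulated data. Precision depends on how many mice were measured and, for handling, is limited by the number of litters, which could not enter the model. Named genes were all called channel genes, the 3 largest changes each way for handling, the 5 largest called each way for extraction, the up to 2 genes of highest mean signal per class, and up to 2 called partners each way. Scn1a, Scn4b, Cacna1a, Cacna2d2, Scn10a, Cacna1s and the partners and markers beyond this rule were named after their values were seen. The members and lists were chosen with earlier results of these data known. Alternatives were other array scalings, an offset of 32 before the log, a filter to the upper 50% of mean signal, fits without the other term, array weights, RNA quality covariates, a prior without trend, each mouse left out, and, added after seeing the data, extraction within each handling group.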

Additional observations from a re-analysis of the deposited data

Results flagged for a closer look

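Within the 4 combinations of handling and extraction, the log2 signal of 25 channel genes was checked for a mouse far from the others of its group, 100 groups in all. Chance flags about 1 in 20 groups, and 9 were flagged. Scn2a was high in handled mouse H109 with columns, at 13.32 with the nearest mouse at 13.05, and low in non-handled mouse NH162 with columns, at 12.16 with the nearest at 12.45. Cacna1b was also high in H109, at 11.13 with the nearest at 10.72. Scn2b was high in H110 among handled mice with columns, at 12.28 with the nearest at 12.20, and in NH162 among non-handled mice with columns, at 12.90 with the nearest at 12.47. Cacna2d1 was low in NH162, at 11.03 with the nearest at 11.68. Cacna1e was low in non-handled mouse NH165 with columns, at 9.53 with the nearest at 10.25, and Cacnb1 in non-handled mouse NH163 with columns, at 8.60 with the nearest at 8.93. Cacna1d was low in handled mouse H126 with Trizol, at 8.96 with the nearest at 9.65. Scn2a kept its handling call without H109 (0.37, the lowest value over the 25 fits that left out 1 mouse), and Cacna1b lost its call without H109 (0.26).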

How the results depend on the processing

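The count of channel genes called for handling was 8, and 5 under quantile normalization, equal mean and SD, RNA quality covariates and a prior without trend, 3 without the extraction term and 0 within Trizol. Over all probe sets it was 5185, and 2914 under quantile normalization, 8787 under median centring, 2301 without the extraction term and 0 within Trizol. Leaving out each mouse gave 5 (without handled mouse H109) to 9 channel genes and 3568 to 5904 probe sets. The handling change of Cacna1b was -0.052 within Trizol. The pore median for handling was 0.36 under median centring and -0.0086 within Trizol, and 0.04 to 0.11 with a mouse left out. The auxiliary median was -0.036 under quantile normalization, -0.049 under equal mean and SD, 0.082 under median centring and 0.012 in the upper 50% of mean signal, and -0.23 to -0.15 with a mouse left out. For extraction, 17 channel genes and 17930 probe sets were called, and 15 to 18 and 16852 to 18204 with a mouse left out. With RNA quality covariates it was 12 channel genes, 4 higher and 8 lower, and 11288 probe sets. The extraction pore median was -0.18 under quantile normalization, -0.16 under equal mean and SD, 0.058 under median centring, -0.29 with RNA quality covariates, -0.52 among handled and -0.56 among non-handled mice, and -0.50 over all probe sets of the genes, and -0.49 to -0.37 with a mouse left out. The auxiliary median was 0.25, 0.22 and 0.51 under the 3 scalings, and -0.03 to 0.11 with a mouse left out. For the interaction, 23 probe sets were called, and 13, 11 and 8 under the 3 scalings, 3 with a prior without trend, and 7 (without H130) to 61 (without H113) with a mouse left out, with 0 to 1 channel genes. This count was at most 15 also without H108, H109, H110, H126, H131, NH144, NH147, NH163 or NH165. Extraction calls of single named channel genes were lost for Cacng3 with RNA quality covariates (0.42), Cacna1b under median centring (-0.30) and Cacng6 within handled (0.68) and non-handled mice (0.97). The causes of these shifts were not tested, and the fits within Trizol rest on fewer mice. No paired analysis was possible because handled and non-handled mice share no replicate numbers. Signals below the array median carry wide errors, and 16 of 37 channel genes fall there on some arrays.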
